A study of Mus musculus and Homo sapiens with 4 samples.

Results

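The genes described here encode 10 transcription factors that drive epithelial-mesenchymal transition (EMT): ZEB1, ZEB2, SNAI1, SNAI2, TWIST1, TWIST2, TCF3, TCF4, PRRX1 and FOXC2. Their transcripts were read on 4 Affymetrix 3' expression arrays, 1 a group. The groups were LM8 cells carrying a pSIREN-RetroQ vector with a hairpin against mouse Merm1/Wbscr22, LM8 cells carrying the control vector, A375M cells carrying a vector with a hairpin against human Merm1/Wbscr22, and A375M cells carrying the control vector. LM8 cells come from a mouse osteosarcoma and A375M cells from a human melanoma, and Merm1/Wbscr22, now named BUD23, encodes a methyltransferase of 18S ribosomal RNA. All 4 lines were made by retroviral infection, no source used here says whether they are clones or pools, and the LM8 and A375M lines were grown in different media. Every probe set whose platform symbol was one of these names was taken, which gave 30 of 45037 non-control probe sets on the mouse array and 41 of 54613 on the human array, 71 in all. Each gene had at least 1 probe set in each species.

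Most of these proteins bind E-box sequences. Members of the group repress epithelial genes such as the E-cadherin gene CDH1 and turn on mesenchymal programmes. SNAI1 and SNAI2 are zinc finger repressors, ZEB1 and ZEB2 are zinc finger and homeodomain repressors, TWIST1 and TWIST2 are basic helix-loop-helix (bHLH) factors, and TCF3 and TCF4 are the E proteins with which other bHLH factors pair. PRRX1 is a paired-type homeobox factor of mesenchyme and FOXC2 a forkhead factor. In melanocytes ZEB2 and SNAI2 are part of the normal programme, and in melanoma a switch towards ZEB1 and TWIST1 is known, while in bone-forming cells TWIST1 restrains differentiation and PRRX1 marks limb and skeletal progenitors.

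Most of these factors bind E-boxes, and mouse promoters of 6 members in the RefSeq promoter table (GRCm38.p6) were searched for them. These gave 9 windows of 250 bases before a start site. The search of members left out the chromosome that carries Zeb1 and Tcf4, so windows of these genes are not among the 9. The count over all windows kept that chromosome. The E-box CANNTG, which reads the same on both strands, was found in 2 of the 9 windows, against 66.2% of all 32851 windows. Its form CAGGTG is bound by the SNAIL and ZEB proteins and was searched on both strands as CAGGTG or CACCTG. It was found in 11.1% of these 9 windows, against 17.2% of all windows. With windows of Zeb1 and Tcf4 left out, and with 4 of the 9 windows from Zeb2 alone, these shares do not describe the members as a whole. Shown are the 2 windows that hold one, of Snai1 and Tcf3, and that of the outermost of 4 Zeb2 starts, which does not. Snai1 and Tcf3 read higher and Zeb2 mostly lower in the LM8 knock-down array. Zeb1 and Tcf4 also read higher there, but their windows were not searched. The windows of Twist1, Twist2 and Prrx1 are not shown. They hold no CANNTG either, and the probe sets of these genes differed in both directions. Whether the motif goes with the direction was not tested. The 3 windows are given 5′ to 3′ on the strand of the gene, with every CANNTG in capitals. They lie at chr2:167537945-167538194 on the plus strand, chr10:80433636-80433885 on the minus strand and chr2:45117443-45117692 on the minus strand.
Snai1: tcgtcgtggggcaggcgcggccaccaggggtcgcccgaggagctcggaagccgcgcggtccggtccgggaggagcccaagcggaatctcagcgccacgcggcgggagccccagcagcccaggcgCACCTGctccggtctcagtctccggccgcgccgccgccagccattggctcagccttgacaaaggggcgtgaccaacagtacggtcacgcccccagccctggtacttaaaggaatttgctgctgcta
Tcf3: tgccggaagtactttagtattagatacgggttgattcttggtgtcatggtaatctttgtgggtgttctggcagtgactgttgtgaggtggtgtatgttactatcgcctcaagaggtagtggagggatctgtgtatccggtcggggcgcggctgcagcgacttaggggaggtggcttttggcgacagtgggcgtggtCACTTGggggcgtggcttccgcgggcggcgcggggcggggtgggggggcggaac
Zeb2: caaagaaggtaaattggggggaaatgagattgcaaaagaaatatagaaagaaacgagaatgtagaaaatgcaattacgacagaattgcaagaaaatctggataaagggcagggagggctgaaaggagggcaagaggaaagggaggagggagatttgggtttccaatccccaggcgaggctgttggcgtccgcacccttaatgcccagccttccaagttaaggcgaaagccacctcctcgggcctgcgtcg
The Snai1 window holds CACCTG, an overlap of both motifs, with its first base 126 bases before the start. The Tcf3 window holds CACTTG at 54 bases before the start, and the Zeb2 window holds none. A match is a description of the letters and not a binding site.

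The values are log2 expression values made by robust multi-array averaging (RMA) from the probes of each probe set after background correction and equalisation of the arrays. Differences are given as knock-down minus control within a line, so that 0.585 on this scale is about 1.5-fold. Each group held 1 array, so that the low number of arrays limits precision and a difference within a line carries neither a replicate check nor a p-value. A technical gauge was taken from genes with several probe sets, whose differences had a median SD of 0.14 (LM8) and 0.074 (A375M). It does not hold the spread between cultures. Of all probe sets 46.9% in LM8 and 34.6% in A375M differed by more than this gauge. In A375M 45.4% of all probe sets had a difference of 0, and such values enter the gauge of that line. The array median was 5.28 in the LM8 knock-down array, 5.29 in the LM8 control array, 4.67 in the A375M knock-down array and 4.64 in the A375M control array, and a probe set below it in both arrays is called dim. In bulk RNA, fewer cells of a type and less RNA per cell cannot be told apart.

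The hairpin target was lower in both knock-down arrays. Bud23 read 8.48 in the LM8 knock-down array and 10.61 in the LM8 control array, a difference of -2.13 that left 22.9% of the control level. The bright human BUD23 probe set read 8.38 in the A375M knock-down array and 10.70 in the A375M control array, a difference of -2.32 that left 20.04%, while a dim second one read 3.16 in the knock-down array and 3.28 in the control array. The lines matched their labels in part. In LM8 all 7 osteoblast markers on the array lay above the array median in both arrays, while 3 of 10 melanocyte markers did so, the transcription factor genes Mitf, Sox10 and Pax3. The other melanocyte markers, the pigment genes Pmel, Mlana, Tyr, Tyrp1 and Dct among them, lay below it in both. In A375M 8 of 9 melanocyte markers lay above the median in both arrays, with the lineage factor gene SOX10 at 11.53 in the knock-down array and 11.62 in the control array, and so did 5 of 9 osteoblast markers, RUNX2, SPP1, DLX5, COL1A1 and PHEX. The osteoblast genes SP7, ALPL, IBSP and DMP1 lay below it. Pigment genes in A375M lay nearer the array median than SOX10. MLANA read 5.19 in the knock-down array and 4.84 in the control array, and PMEL 5.57 in the knock-down array and 5.42 in the control array. TYR read 6.04 in both arrays, and TYRP1 6.04 in the knock-down array and 6.01 in the control array.

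**Figure D1:**
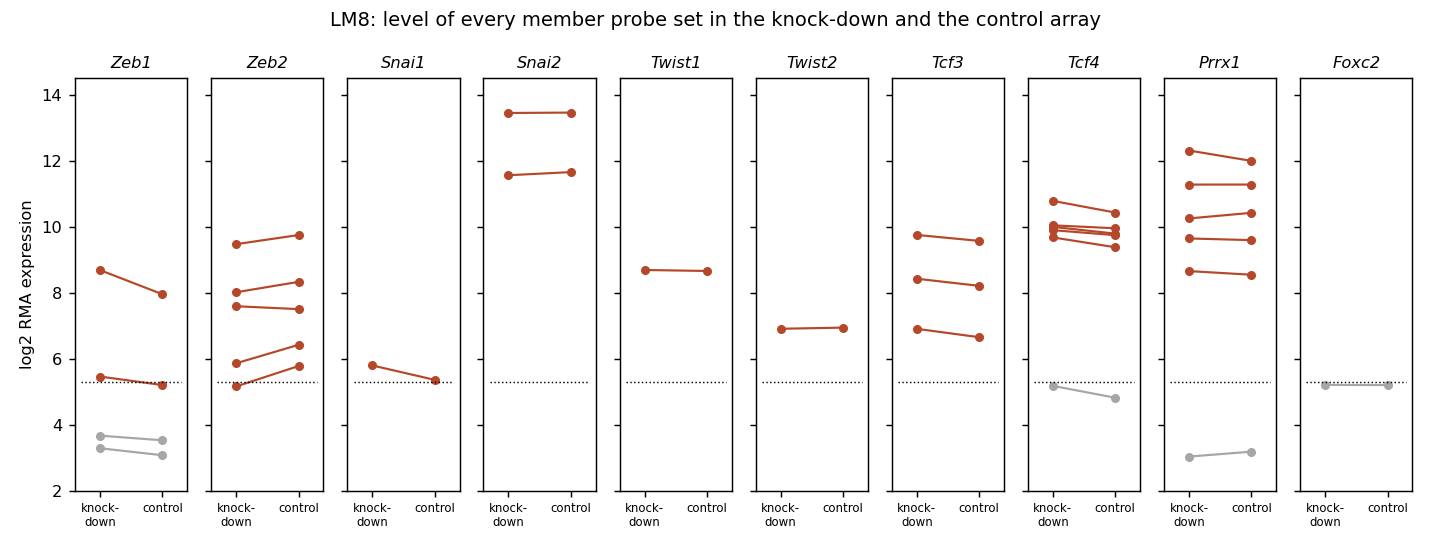
Log2 RMA expression (vertical axis) of every member probe set in LM8, with the knock-down array left and the control array right for each gene. Lines join the values of 1 probe set, grey marks probe sets below the array median (dotted line) in both arrays. Lines of Zeb1 and Tcf4 run higher at the knock-down end, and those of Zeb2 mostly lower.

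In LM8 the members split. Zeb1, Snai1, Tcf3 and Tcf4 read higher in the knock-down array on every probe set, Zeb2 read lower on 4 of 5, and Snai2, Twist1, Twist2 and Foxc2 differed by 0.094 or less in either direction. Of the 30 probe sets 20 were higher and 10 lower, against 50.5% higher and 48.8% lower among all non-control probe sets, and their median difference was 0.099, against 0.0028 over all. Of the 30, 1 probe set of Zeb1 was at least 1.5-fold higher (1.04% of all probe sets were) and 1 of Zeb2 at least 1.5-fold lower (1.38% of all were), and 0 reached 2-fold in either direction (0.0822% and 0.167% of all). None was identical in both arrays (0.706% of all were). The probe sets of a gene share their arrays and their transcript, so these counts are not counts of independent observations.

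Zeb1 had the highest difference of the members in LM8. Its brightest probe set read 8.69 in the knock-down array and 7.95 in the control array, a difference of 0.73 or 1.66-fold higher. It ranked number 172 of 45037 from the top, so that 0.382% of all probe sets, and 0.487% of those within 0.5 of its mean level, were at least as far up. The second Zeb1 probe set, close to the array median, read 5.46 in the knock-down array and 5.20 in the control array, and the remaining 2, both dim, differed by 0.21 and 0.14. All 4 were thus higher in the knock-down array, with a mean of 0.34 ± 0.27 (SD over 4 probe sets). The size of the difference rests on the brightest one.

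Zeb2, the paralogue with the same kind of DNA-binding domains, read lower on most of its probe sets. Its brightest probe set read 9.47 in the knock-down array and 9.75 in the control array, a difference of -0.28. The next read 8.02 in the knock-down array and 8.33 in the control array, a difference of -0.31. Lower still were the differences of 2 probe sets nearer the array median. The first read 5.86 in the knock-down array and 6.42 in the control array (-0.56), and the second 5.16 in the knock-down array and 5.78 in the control array (-0.62, or 1.54-fold lower). The fifth Zeb2 probe set was the exception, at 7.59 in the knock-down array and 7.50 in the control array, a difference of 0.087. The mean over the 5 was -0.34 ± 0.28 (SD over 5 probe sets). The 4 Zeb1 differences ran from 0.14 to 0.73 and the 5 Zeb2 differences from -0.62 to 0.087. The lowest Zeb1 differences, 0.14 and 0.21, were those of its dim probe sets. Of probe sets near their level, 26.7% and 16.3% were at least as far up. How often the probe sets of other gene pairs separate like this was not counted. With 1 array a group this contrast between the paralogues was not tested.

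The SNAIL genes were read on 3 mouse probe sets in LM8. Snai1 has 1 mouse probe set, which read 5.80 in the knock-down array and 5.36 in the control array, a difference of 0.44. Its control value lies just above the array median of 5.29, where signal over background is low, and an offset of 32 on the linear scale reduced the difference to 0.26. Snai2 was bright on both of its probe sets, at 13.45 in the knock-down array and 13.46 in the control array on one and at 11.56 in the knock-down array and 11.66 in the control array on the other, with differences of -0.013 and -0.094. Both Snai2 differences are smaller than the technical gauge.

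The E proteins were higher on all of their probe sets in LM8. Tcf3, which encodes E12 and E47, had 3 probe sets, and the brightest read 9.75 in the knock-down array and 9.57 in the control array, a difference of 0.18. The other two differed by 0.22 and 0.25, which makes Tcf3 the member with the least spread between its probe sets, a mean of 0.22 ± 0.036 (SD over 3 probe sets) among genes with at least 3. Tcf4, which encodes E2-2, had 6 probe sets with differences from 0.089 to 0.36 and a mean of 0.24 ± 0.11 (SD over 6 probe sets). Its brightest read 10.79 in the knock-down array and 10.43 in the control array (0.35), and the highest difference, 0.36, was that of its dim probe set. Among all probe sets 5.53% were at least as far up as the brightest Tcf4 probe set, and 2.38% of those near its level.

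The TWIST genes, whose proteins pair with these E proteins, differed little. Twist1 read 8.69 in the knock-down array and 8.66 in the control array (0.030), and Twist2 read 6.91 in the knock-down array and 6.94 in the control array (-0.035). Prrx1 had 6 probe sets of both signs, 3 higher and 3 lower, between -0.17 and 0.31. The brightest, at 12.31 in the knock-down array and 12.00 in the control array, differed by 0.31, while the next 2 in brightness differed by -0.00060 and -0.17. The mean over the 6 was 0.026 ± 0.18 (SD over 6 probe sets), so no direction can be given for Prrx1. Foxc2 was dim, at 5.21 in the knock-down array and 5.20 in the control array.

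**Figure D2:**
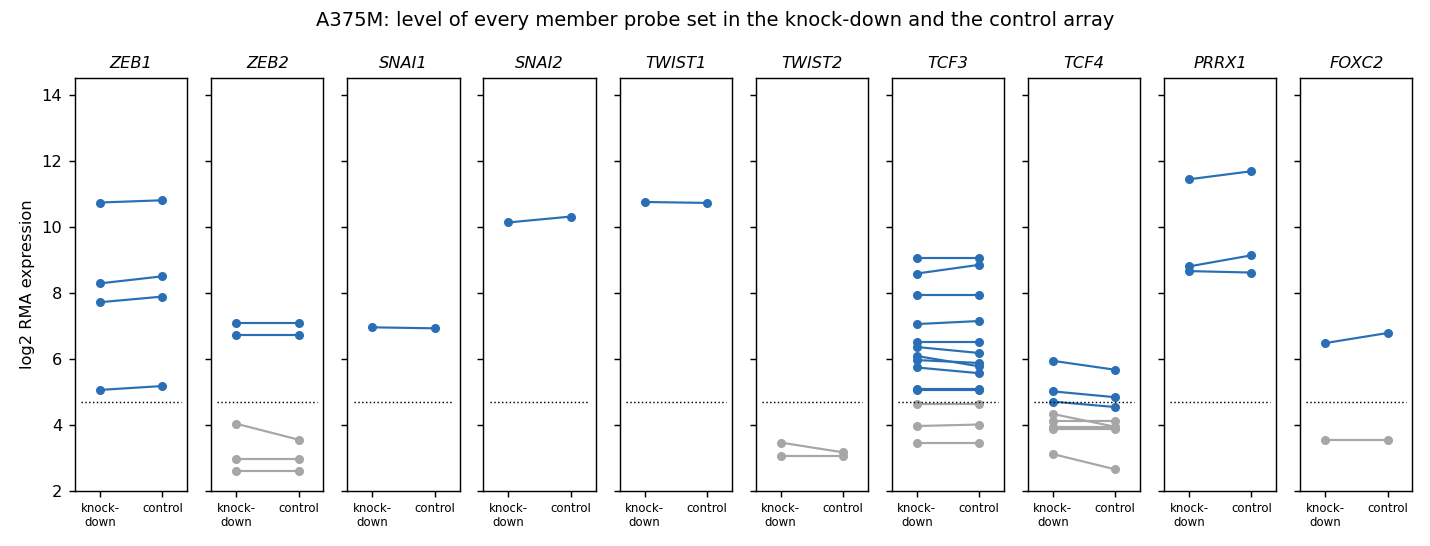
Log2 RMA expression (vertical axis) of every member probe set in A375M, with the knock-down array left and the control array right for each gene. Lines join the values of 1 probe set, grey marks probe sets below the array median (dotted line) in both arrays. Many lines are flat, and those of ZEB1 run lower at the knock-down end.

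In A375M 0 of 41 member probe sets were at least 1.5-fold higher or lower (0.269% of all non-control probe sets were higher and 0.273% lower by that much), and none reached 2-fold (0.0513% higher and 0.0128% lower). ZEB1 was lower on all 4 of its probe sets, PRRX1 on 2 of 3, and TCF4 was higher on 5 of 8 with the other 3 identical. Of the 41 probe sets 14 were higher (26% of all), 11 lower (28.6% of all) and 16 identical in both arrays (45.4% of all). The median difference was 0, as it was over all probe sets. The control value of 20 of the 41 recurred in another probe set, as it did for 67.4% of all. The step that made them recur is not named by any source used here, and its part in the flat lines was not tested, so a difference of 0 does not show that a transcript was equal.

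ZEB1 was a bright transcript in A375M. Its brightest probe set read 10.74 in the knock-down array and 10.81 in the control array, a difference of -0.068. The next read 8.28 in the knock-down array and 8.50 in the control array (-0.21), and the third 7.71 in the knock-down array and 7.88 in the control array (-0.17). The fourth, closer to the array median, differed by -0.12. The mean over the 4 was -0.14 ± 0.063 (SD over 4 probe sets), all lower. Of all probe sets 19.3% were at least as far down as the brightest and 6.2% as the second. Among probe sets near their level these shares were 27.9% and 11.6%. The difference of the brightest is smaller than the technical gauge of 0.074. These differences are small, the largest being 1.16-fold.

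ZEB2, the paralogue of the melanocyte programme, was identical in both arrays on both probe sets above the median, at 7.09 on one and 6.71 on the other. Its only difference, 0.48, was that of a dim probe set, at 4.03 in the knock-down array and 3.54 in the control array. The 2 remaining ones, dim as well, were identical.

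SNAI1 read 6.95 in the A375M knock-down array and 6.92 in the control array, a difference of 0.031 below the gauge. SNAI2, which belongs to the neural crest and melanocyte programme, read 10.13 in the knock-down array and 10.31 in the control array, a difference of -0.18 on its 1 probe set. TWIST1 was bright and nearly level, at 10.75 in the knock-down array and 10.72 in the control array, a difference of 0.028 that turned to -0.0021 under median centring of the arrays. Both TWIST2 probe sets were dim, at 3.46 and 3.06 in the knock-down array and 3.16 and 3.06 in the control array. Neither TWIST gene therefore has a measured difference beyond its gauge above the median.

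The human E protein genes had the most probe sets. The 14 TCF3 probe sets ranged from -0.26 to 0.31, with 4 higher, 3 lower and 7 identical. The brightest read 9.06 in both arrays, and the next 8.58 in the knock-down array and 8.85 in the control array. Their mean of 0.025 became -0.0049 under the same centring, and no direction can be given for TCF3. TCF4 had 8 probe sets, 5 higher in the knock-down array and 3 identical. The brightest read 5.94 in the knock-down array and 5.66 in the control array (0.27), the next 5.01 in the knock-down array and 4.83 in the control array (0.18), and the third, above the median only in the knock-down array, 4.70 in the knock-down array and 4.53 in the control array (0.16). The largest TCF4 differences, 0.46 and 0.39, came from dim probe sets, and the 3 identical ones were dim as well. With 32 added before the log2, the difference of the brightest was 0.17, and the mean over the 8 was 0.069 in place of 0.18.

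PRRX1, a bright transcript in this line, was lower on its 2 brightest probe sets. The first read 11.44 in the knock-down array and 11.69 in the control array (-0.24), and the second 8.80 in the knock-down array and 9.14 in the control array (-0.34, the lowest member difference in A375M). The third differed by 0.045, at 8.66 in the knock-down array and 8.61 in the control array. Of all probe sets 4.81% were at least as far down as the first and 2.16% as the second. FOXC2 read 6.47 in the knock-down array and 6.78 in the control array on one probe set, a difference of -0.31, and was dim and identical on the other.

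**Figure D3:**
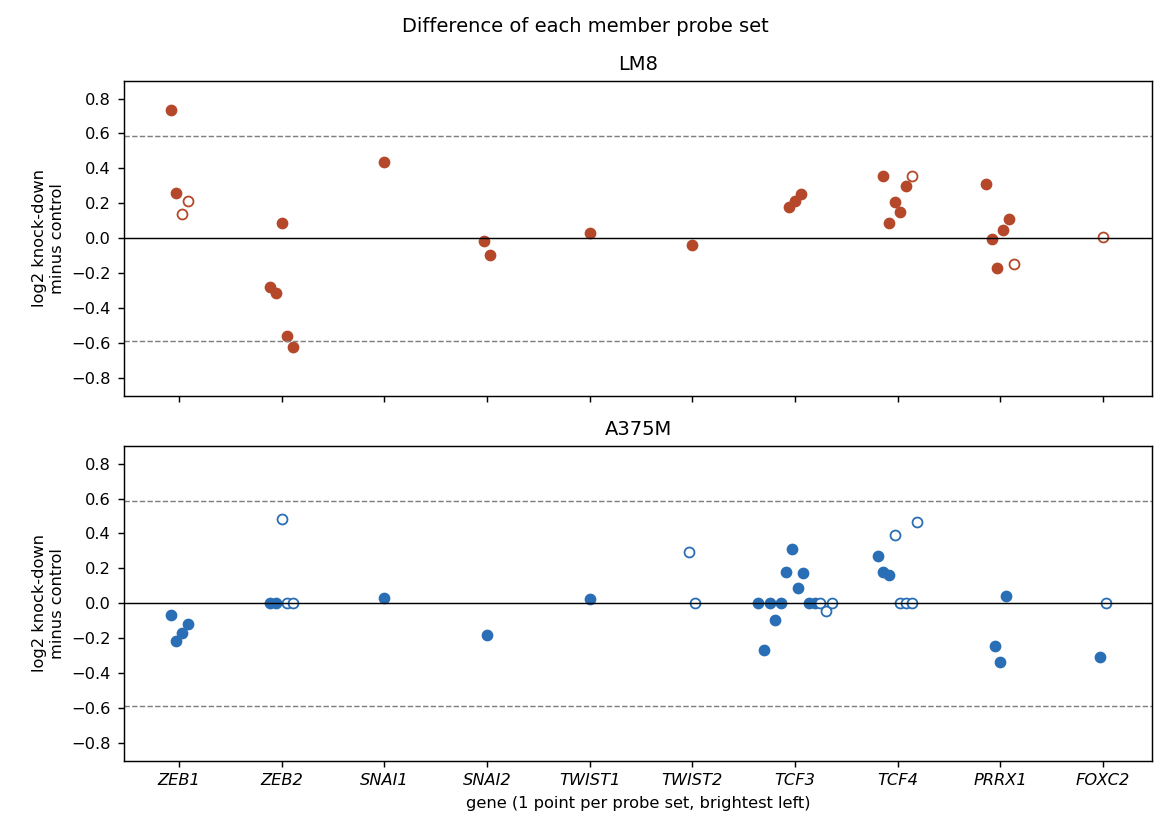
Log2 difference, knock-down minus control (vertical axis), of every member probe set in LM8 (top) and A375M (bottom), by gene. Filled points lie above the array median in at least 1 array, open points below it in both, and dashed lines mark 1.5-fold. In LM8 1 ZEB1 and 1 ZEB2 point lie beyond the dashed lines, and in A375M 0 points do.

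Set side by side, each gene had 2 separate differences, since the mouse and human probes are of different design. TCF4 was higher in the knock-down array of both lines, with brightest probe sets at 0.35 in LM8 and 0.27 in A375M (0.17 in A375M with the offset of 32). ZEB1 was higher on all 4 probe sets in LM8 and lower on all 4 in A375M. On the brightest probe sets the differences were 0.73 in LM8 and -0.068 in A375M, the latter smaller than the technical gauge. The brightest PRRX1 probe sets also had opposite signs, 0.31 in LM8 and -0.24 in A375M, although other probe sets of the gene did not follow. ZEB2 was lower in LM8 (-0.28) and identical in A375M on its brightest probe sets. SNAI1 was at 0.44 in LM8 and 0.031 in A375M.

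The lines are the only repeat of the knock-down, and limma was used to test the mean of both differences, which takes LM8 and A375M as replicates although they differ in species, over 13637 genes with a probe set on both arrays. Of the 10 members 0 had an adjusted p under 0.05 (Benjamini-Hochberg over all genes), as did 0 of the 13637 (0% of genes), while 1 member and 404 genes had an unadjusted p under 0.05. That member was TCF4, with a mean difference of 0.31 ± 0.086 (SE, n = 2 lines), higher in 2 of 2 lines, at a limma p of 0.017 and an adjusted p of 0.98. ZEB1 had a mean of 0.33 ± 0.20 (SE, n = 2 lines) and a limma adjusted p of 0.98. These intervals are wide, and a p that misses the threshold does not show that a member stayed level.

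**Figure D4:**
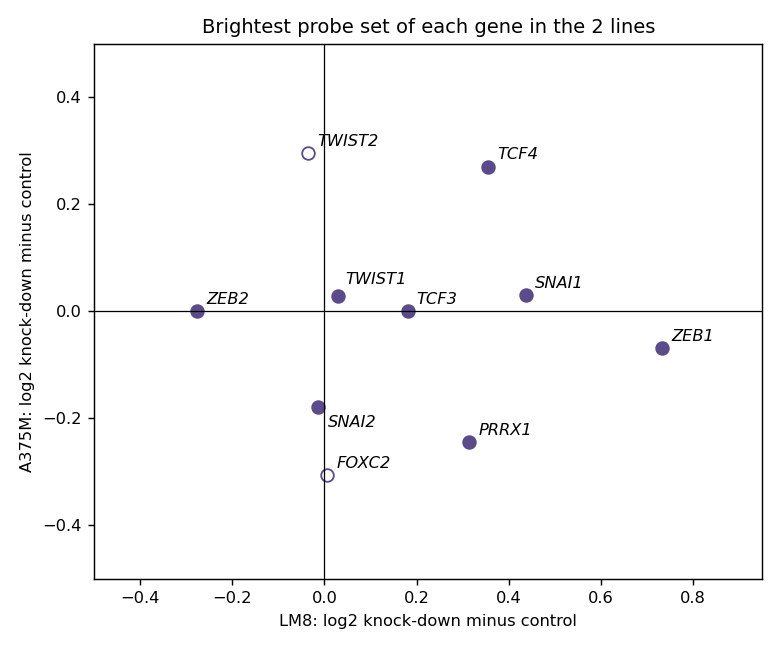
Log2 difference, knock-down minus control, of the brightest probe set of each member in LM8 (horizontal axis) and A375M (vertical axis). Filled points have a probe set above the array median in both lines, open points do not. TCF4 lies at 0.35 and 0.27, ZEB1 at 0.73 and -0.068.

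**Figure D5:**
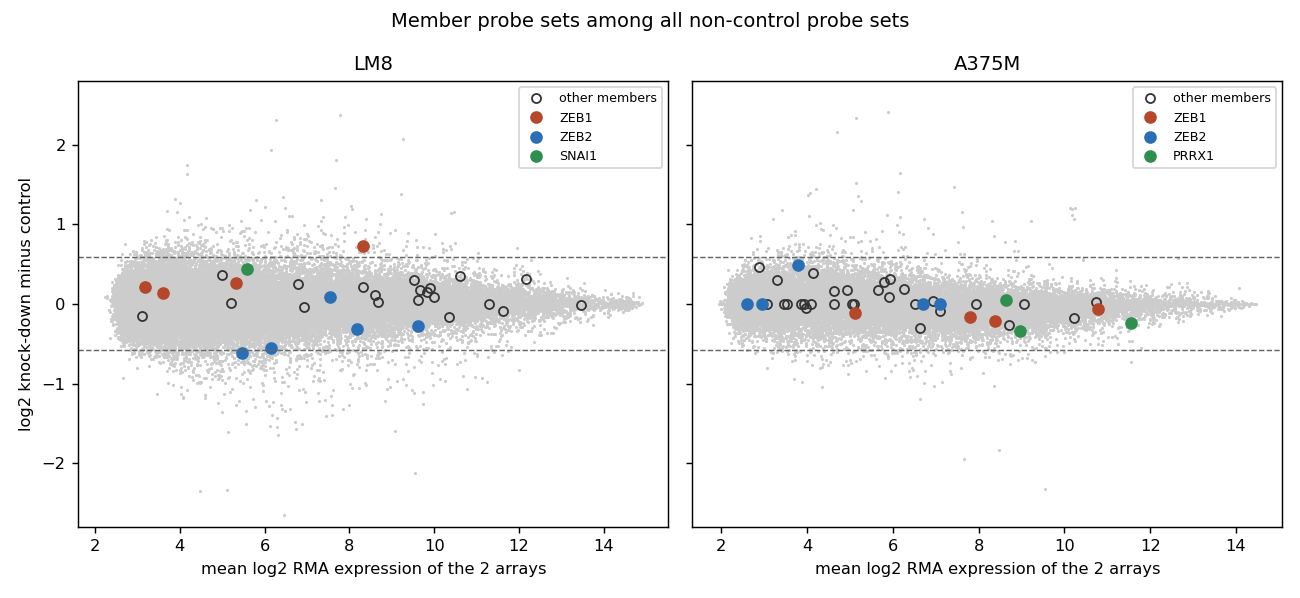
Log2 difference, knock-down minus control (vertical axis), against the mean log2 RMA expression of both arrays (horizontal axis) for all non-control probe sets (grey) and the members (circles) in LM8 and A375M. Dashed lines mark 1.5-fold. The brightest ZEB1 probe set in LM8, at 0.73, and the lowest ZEB2 probe set, at -0.62, lie at the edges of the cloud.

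The genes these factors act on were read through lists of epithelial and mesenchymal genes, each gene by its brightest probe set. A gene was kept where that probe set lay above the array median in at least 1 array, which left 11646 genes in LM8 and 13244 in A375M. Among kept genes 1.16% were at least 1.5-fold higher and 1.31% at least 1.5-fold lower in LM8, and 0.378% higher and 0.37% lower in A375M. Over all kept genes the median difference was 0.015 in LM8 and 0 in A375M. In LM8 53.8% of kept genes were higher, 46% lower and 0.172% identical, and in A375M 29% were higher, 40.3% lower and 30.8% identical. A gene kept through 1 array only had to differ in favour of that array, and each gene named below that was kept so is marked.

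CDH1, the repression target by which EMT is usually read, was dim in both lines. Cdh1 read 3.91 in the LM8 knock-down array and 4.54 in the LM8 control array, a difference of -0.63 between values that both lie below the array median. In A375M CDH1 read 2.75 in both arrays. VIM, the mesenchymal intermediate filament gene, was bright and level, at 14.03 in the LM8 knock-down array and 14.00 in the LM8 control array, and at 14.02 in each A375M array. The N-cadherin gene Cdh2 was dim in LM8, at 3.80 in the knock-down array and 3.85 in the control array. In A375M CDH2 lay well above the array median, at 10.35 in the knock-down array and 10.27 in the control array (0.077), and levels on the mouse and human probes cannot be set against each other.

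Of 40 epithelial genes on the mouse array 14 were kept in LM8, 8 higher and 6 lower, with 0 past 1.5-fold and a median of 0.030. Above the median in both arrays were 11 of them, 6 higher and 5 lower, with a median of 0.016. The furthest were Jup, the plakoglobin gene, at 0.49, Grhl1, a grainyhead factor gene, at 0.46, and the desmosomal plakophilin gene Pkp3 at 0.43. The other Pkp3 probe set differed by -0.32. Grhl1, at 5.36 in the knock-down array and 4.91 in the control array, and Pkp3, at 5.65 in the knock-down array and 5.23 in the control array, were kept through the knock-down array only. In A375M 26 of 38 were kept, with 9 higher, 10 lower, 7 identical and a median of 0. The 1 gene past 1.5-fold was DSP, the desmoplakin gene, at 7.68 in the knock-down array and 8.55 in the control array (-0.87). After it came the tight junction gene CLDN6 (-0.43), at 5.94 in the knock-down array and 6.36 in the control array.

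Of 32 kept mesenchymal genes in LM8 23 were higher and 9 lower, with a median of 0.095 and 2 genes at least 1.5-fold higher. These were the fibrillar collagen gene Col3a1, at 8.96 in the knock-down array and 6.59 in the control array (2.37), and the periostin gene Postn, at 10.96 in the knock-down array and 9.82 in the control array (1.15). The 1 gene at least 1.5-fold lower was Grem1, which encodes a secreted BMP antagonist, at 6.26 in the knock-down array and 7.11 in the control array (-0.85). In A375M 13 of 32 kept genes were higher, 11 lower and 8 identical, with a median of 0 and 2 genes at least 1.5-fold lower. TGFBI, a matrix gene induced by TGF-beta, read 11.19 in the knock-down array and 11.92 in the control array (-0.73). FBLN5, an elastic fibre gene, read 4.51 in the knock-down array and 5.39 in the control array (-0.88) and was kept through the control array only.

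Partners of these factors were counted in the same way. Among corepressors and chromatin cofactors all 23 on each array were kept and 0 passed 1.5-fold in either line. The furthest were Ajuba, a LIM protein that joins SNAI1 to its corepressors, at -0.53 in LM8, and the acetyltransferase gene EP300 at -0.29 in A375M. Of the bHLH partners and ID inhibitors 7 were kept in LM8, 5 of them through both arrays, and 6 in A375M, and 0 passed 1.5-fold. ID proteins sequester E proteins, and ID4 read 9.87 in the A375M knock-down array and 10.37 in the A375M control array (-0.50), while ID3 differed by 0.24. In LM8 Id3 differed by -0.18. Among kinases and ubiquitin ligases that act on SNAIL, TWIST or ZEB proteins 15 were kept in LM8 and 16 in A375M, and 0 passed 1.5-fold. BTRC, whose product targets SNAI1 for degradation, differed by 0.37 in LM8 and 0.27 in A375M, with probe sets of both signs in each line.

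Upstream signals had a median of 0.058 over 23 kept genes in LM8, with 14 higher and 9 lower, and -0.037 over 26 in A375M, with 7 higher and 15 lower. In LM8 0 passed 1.5-fold. The furthest were the receptor gene Egfr (0.46) and the ligand gene Tgfb3 (0.44), which read 9.79 in the knock-down array and 9.35 in the control array. The 7 Egfr probe sets lay between -0.12 and 0.46. In A375M BMP7 was at least 1.5-fold higher, at 6.64 in the knock-down array and 6.04 in the control array (0.60), and TGFBR1, a TGF-beta receptor gene, differed by -0.44. HMGA2, a chromatin factor gene that can switch on SNAI1 and TWIST1, differed by 0.57, with its 9 probe sets between -0.39 and 0.57. Among other EMT-associated factors 11 genes were kept in each line. Goosecoid (Gsc) was at least 1.5-fold lower in LM8, at 5.46 in the knock-down array and 6.10 in the control array (-0.64), and in A375M 0 passed.

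Markers of other cell types were read beside these differences. In LM8 the fibroblast and smooth muscle list, in which 6 of 8 genes on the array lay above the median in both arrays, had a median of 0.19 and 1 gene at least 1.5-fold higher. Its level summed over the list was 14.00 in both LM8 arrays. Leukocyte markers had a summed level of 7.91 in the knock-down array and 8.03 in the control array, and endothelial markers 8.30 in the knock-down array and 8.35 in the control array. Keratinocyte and epithelial markers lay above the median in both LM8 arrays for 1 of 7 genes. In A375M the summed level of fibroblast and smooth muscle markers was 10.16 in the knock-down array and 10.15 in the control array, that of leukocyte markers 7.51 in the knock-down array and 7.55 in the control array, and that of endothelial markers 7.98 in the knock-down array and 8.09 in the control array. The part of other cells in the differences of the members was not tested.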

How the data were processed

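Total RNA of 4 stably infected lines was labelled as biotinylated cRNA for Affymetrix 3' arrays (per the labels' protocols), with 1 array in each of the 4 groups, taken from the sample titles. The authors deposited log2 values for each probe set, and RMA is named, without a version, in the submitters' processing notes. After sorting, the values of both arrays lay within 0.064 of each other in LM8 and within 0.075 in A375M, so a global shift would not be seen. Gene names came from the platform annotation, in which 34945 mouse and 41091 human non-control probe sets have 1 symbol. The 932 mouse and 1801 human probe sets with several symbols, and those with none, were not used to name a gene. Every member probe set was used with no filter. A list gene was represented by its brightest probe set and kept where it exceeded the 50th percentile on either array of the line.

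The fit over both lines used limma 3.58.1 (R 4.3.3) on paired differences, the line being the block. It was run on simulated data with known shifts, the same in both lines and larger than the mean difference of any member. That run does not show how the fit treats differences as small as those of the members, or of opposite sign. The members, the 7 gene lists, the 6 marker lists and the thresholds were chosen with earlier results of these data known. Named genes were all members, BUD23, CDH1, VIM, CDH2 and up to 4 kept genes of each list with the largest differences in a line. Promoter sequences are from RefSeq (GRCm38.p6), and human sequences were not used here. The chromosome that carries Zeb1 and Tcf4 was left out of the member windows but not of all windows. Alternatives were median centring, a second quantile normalization, subtraction of a loess curve (span 0.4), an offset of 32, exclusion of probe sets ending in _x_at or _s_at, filters at the 50th and 70th percentiles and a 2-fold threshold. Leaving out probe sets identical in both arrays was added after the values were seen.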

Additional observations from a re-analysis of the deposited data

Results flagged for a closer look

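ZEB1 was the member whose probe sets all went one way in one line and all the other way in the other line. Its brightest probe set differed by 0.73 in LM8 and by -0.068 in A375M, 0.80 further up in LM8 than in A375M. With 1 array in each group this difference between the lines was not tested. The A375M difference of -0.068 is smaller than the technical gauge, and 19.3% of all A375M probe sets were at least as far down. How many other genes go opposite ways in this manner was not counted.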

How the results depend on the processing

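The count of member probe sets at least 1.5-fold lower in LM8 was 0 in place of 1 with 32 added to the linear values, with the filter at the 70th percentile and at a 2-fold threshold, and the count at least 1.5-fold higher was 0 in place of 1 at the 2-fold threshold. The BUD23 difference in A375M was -2.21 with 32 added, and -0.12 where probe sets ending in _x_at or _s_at were left out, since that removes the bright one. Of the other 59 alternative values of the counts, medians, target differences and the limma fit, all lay within 1.5 times the reported count or within the technical gauge. The median difference of the members lay between 0.061 and 0.11 in LM8 and between -0.068 and 0.031 in A375M. Among brightest and mean differences of single members, 9 alternative values moved by more than the gauge and 191 did not, and 3 changed sign, all by centring in A375M, for TWIST1 and the TCF3 mean. Quantile normalization, loess and centring moved the median of all probe sets by at most 0.030. The limma fit called 0 members under each of the 7 alternatives, with the lowest member adjusted p between 0.95 and 1.00, and 0 to 3 genes in all. With 1 array a group no array could be left out, and the lines already pair the arrays in the fit.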
